A study of Mus musculus with 8 samples.

Results

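The interleukin-1 (IL-1) family receptors, the IL-1 receptor antagonist and the IL-18 system were examined in mouse cheek skin as 10 genes, Il1rn, Il1r1, Il1r2, Il1rap, Il1rl1, Il1rl2, Il18, Il18r1, Il18rap and Il18bp. They were chosen by name, by matching their symbols in the deposited table, and all 10 were found among its 18901 genes and passed the filter of at least 10 counts over the 8 mice, which left 17124 genes for testing. RNA was sequenced from the injected cheek of 4 conditional knockout mice of genotype TBX20fl/fl;K14-Cre, called cKO mice, and from that of 4 TBX20fl/fl mice, with 1 library per mouse. All mice were 7-week-old females carrying the floxed Tbx20 alleles, and all received 10 µg of brain natriuretic peptide (BNP), an itch-evoking peptide, by intradermal injection into the left cheek. Behaviour was filmed for 30 min, and the tissue was taken 5 h after the recording ended. In cKO mice, Cre recombinase under the K14 promoter removes part of Tbx20 in keratinocytes, the cells of the epidermis that express keratin 14, and it leaves the floxed gene intact in cells where this promoter is not active. The TBX20fl/fl mice were littermates without Cre, and vehicle-injected cheeks were not analysed here, so the values compare genotypes after BNP and hold no comparison of BNP with vehicle.

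IL-1 family cytokines are released by stressed keratinocytes and by myeloid cells, and they start inflammation by joining a ligand-binding receptor to a shared accessory chain whose intracellular domains recruit the adaptor MyD88. The family carries its own brakes, which include a receptor antagonist that occupies the IL-1 receptor without signalling, a decoy receptor that binds IL-1 but lacks the signalling domain, and a soluble protein that captures IL-18. In skin the family is known for its part in neutrophil recruitment, in pustular disease driven by IL-36 and in allergic responses to IL-33.

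Tbx20 itself was at 0 to 2 counts in the cKO group and 0 to 3 counts in the other, which is too low to check the genotype labels in whole skin. The 10 keratinocyte markers examined were present in every mouse, with a summed level of 8170 to 10592 CPM (counts relative to the library total, scaled by the TMM method) in cKO mice and 8643 to 11022 CPM in TBX20fl/fl mice. Total counts were 16056282 to 19880654 per mouse. One library stood apart, that of TBX20fl/fl replicate 2. Its TMM factor was 0.735 against 1.01 to 1.07 in the other 7 mice, and its median Spearman correlation with the other mice across genes was 0.919 against 0.974 to 0.990. Results are therefore given with and without this mouse, and the values of 4 mice are listed in the order of their replicate numbers. In a table of whole-skin RNA, fewer cells of a type and less RNA per cell cannot be told apart.

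On the log2 scale, Il1rn, Il1r2, Il18, Il18rap and Il18bp had fold changes (cKO over TBX20fl/fl) from -0.91 to -0.59, whereas Il1r1, Il1rap and Il1rl2 lay between -0.063 and 0.056, with a 95% interval that reached from -0.48 to 0.51 for Il1r1. The difference between these groups of genes was not tested, and with a trend with transcript length removed it was smaller, since Il18 was at -0.23 and Il18bp at -0.29 beside Il1rap at -0.31 and Il1r1 at -0.21. None of the 10 passed the threshold, a Benjamini-Hochberg adjusted p-value under 0.05 by the quasi-likelihood test of edgeR, and neither did any of the 17124 genes (0% called). At an unadjusted p-value under 0.05 in the same test, 5 of the 10 were lower in cKO mice, against a background of 5.91% of all genes tested, and 0 were higher, against 2.45%. The 5 were those named above. The count of lower members varied with the fit. It was 2, Il1rn and Il1r2, by limma on FPKM values, against 3.39% of all genes in that fit. It was 4 with the replicate number as a block, against 6.54%, and 3, namely Il1rn, Il1r2 and Il18rap, without cKO replicate 2 or without cKO replicate 3, against 4.06% and 3.22%. Il18r1 joined the 5 in 5 other settings, which gave 6. Of these, DESeq2 had a background of 8.29%, edgeR with the size factors of DESeq2 6.04%, edgeR with upper-quartile factors 6.36%, and edgeR without TBX20fl/fl replicate 1 or without TBX20fl/fl replicate 4 had 10.9% and 9.89%. Of the 10 log2 fold changes, 8 were below 0 and 2 above, with a median of -0.50 beside 0.026 over all genes tested. Of all 17124 genes tested, 8137 were below 0 and 8987 above. The members' median was -0.30 without TBX20fl/fl replicate 2, beside 0.013 over all genes, and -0.35 with the length trend removed, beside 0.021. DESeq2 called 10 genes at an adjusted p-value under 0.05, none of them a member, and limma on FPKM values called 0, with 1046 genes at an unadjusted p-value under 0.05.

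**Figure D1:**
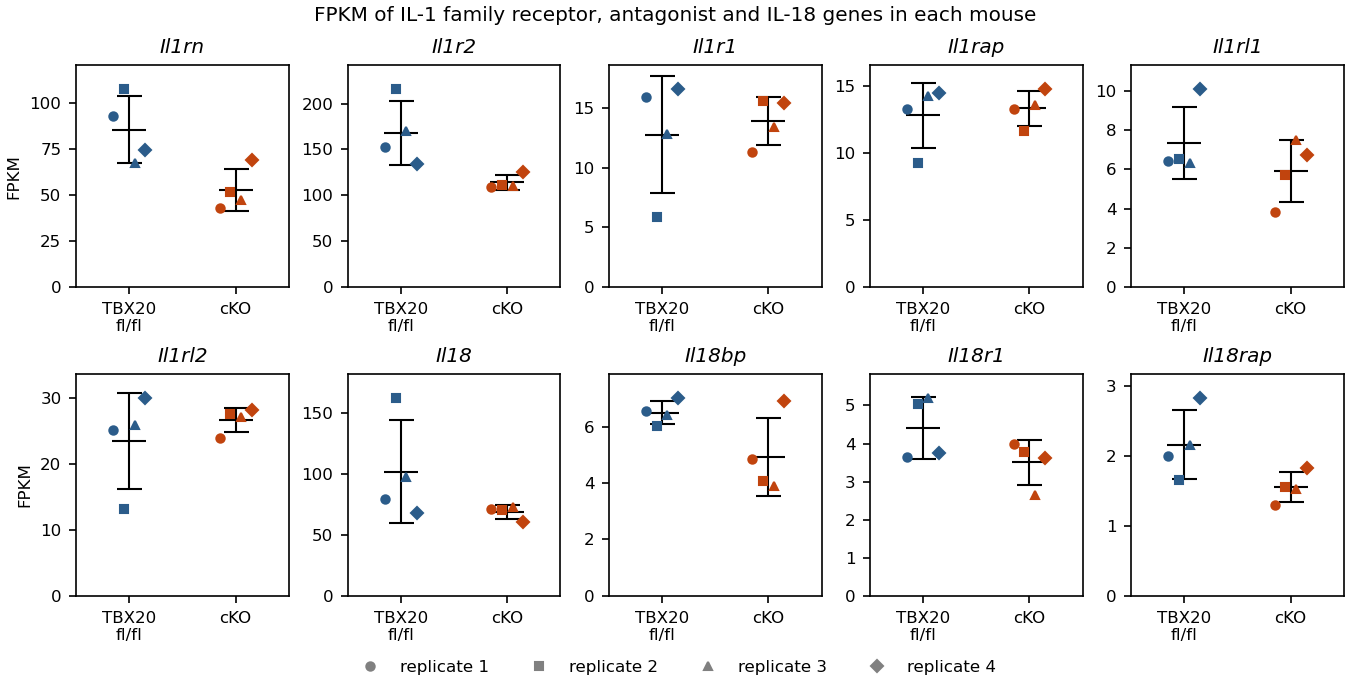
FPKM (fragments per kilobase of transcript, scaled to the mapped fragments of the library, linear axes starting at 0) of each of the 10 genes, with 1 point per mouse by genotype and a bar for the mean ± SD of 4 mice. The points of the genotypes are apart only for Il1r2, while the lowest Il1r1 and Il1rl2 values, 5.84 and 13.1 FPKM, both belong to TBX20fl/fl replicate 2.

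The levels of the 10 genes, compared between genes as FPKM because this unit is scaled by transcript length, were ordered almost alike in both genotypes. In TBX20fl/fl mice the decoy receptor gene Il1r2 had the highest mean, 168.2 FPKM, followed by Il18 with 101.8 and Il1rn with 85.7. The signalling receptor genes came next, with means of 23.5 FPKM for Il1rl2 and 12.8 for both Il1rap and Il1r1. Il1rl1, Il18bp, Il18r1 and Il18rap had the lowest means, from 7.36 FPKM for Il1rl1 down to 2.16 for Il18rap. The ranges over the 4 mice did not overlap between Il1rn and Il1rl2, between Il18bp and Il18r1 and between Il18r1 and Il18rap, and they overlapped between all other neighbours in this order. In cKO mice the order was the same except that Il1r1, at a mean of 13.9 FPKM, and Il1rap, at 13.4, changed places, and the ranges of these 2 genes overlapped. The 2 genes at the top were a decoy receptor and a cytokine, and both had means several times that of the signalling receptor Il1r1.

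Il1rn encodes the IL-1 receptor antagonist, which competes with IL-1α and IL-1β for the receptor. It lies on chromosome 2 (GRCm38, 24336860 to 24351491, plus strand). Its level was 93.0, 107.8, 67.4 and 74.5 FPKM in TBX20fl/fl replicates 1 to 4. The cKO replicates 1 to 4 had 42.9, 52.0, 47.6 and 69.0 FPKM. The genotypes overlapped through a single mouse, since cKO replicate 4 was slightly above TBX20fl/fl replicate 3. The means were 52.9 ± 11.4 FPKM in cKO mice against 85.7 ± 18.2 FPKM in TBX20fl/fl mice (SD, n = 4 each), a 1.62-fold higher level in the latter, with p = 0.0571 in a two-sided exact permutation test over all 70 ways to assign the mice, which can give no p below 0.0286. On counts, which were 1996 to 3318 and 3085 to 4403, the log2 fold change was -0.91 (SE 0.271, 95% interval -1.52 to -0.30, adjusted p = 0.498 by edgeR). Without TBX20fl/fl replicate 2 it was -0.61.

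Il1r2 encodes the decoy receptor, which holds IL-1 without passing on a signal, and lies at the start of the receptor gene cluster on chromosome 1 (40084692 to 40125230, plus strand). It was at 152.4, 215.8, 170.6 and 133.9 FPKM in TBX20fl/fl mice. Its cKO values were 109.4, 111.3, 109.7 and 125.6 FPKM. The highest cKO value was below the lowest TBX20fl/fl value, and Il1r2 was the only 1 of the 10 genes without overlap in FPKM. Over all genes tested, 1.87% were lower in FPKM without overlap and 5.19% were higher without overlap. In TMM-scaled CPM the mice did not overlap for Il1rn (at most 155.3 in cKO and at least 161.6 in TBX20fl/fl mice) and for Il18rap (8.24 and 9.40) either, and the exact permutation test gave p = 0.0286 for both, against 3.27% of all genes lower without overlap in CPM. The means were 114.0 ± 7.79 FPKM and 168.2 ± 35.1 FPKM (SD, n = 4 each), with p = 0.0286 in the exact permutation test, the smallest it can give. Paired by replicate number, the exact permutation test gave p = 0.125, the smallest that 4 pairs allow. The log2 fold change on counts was -0.78 (SE 0.25, 95% interval -1.34 to -0.22, adjusted p = 0.498 by edgeR), and -0.47 without TBX20fl/fl replicate 2, which held the highest value.

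The sequences around the start sites of Il1rn, whose log2 fold change was farthest from 0 in the fit to all 8 mice, and of Il1r2, which had no overlap between genotypes, are shown because the deleted gene encodes a transcription factor of the T-box family. Each is a window of 300 bases, from 250 before to 50 after a RefSeq start on GRCm38.p6, written 5′ to 3′ on the gene's strand. Capitals would mark the T-box half-site AGGTGT or the NF-kB letters GGGNNTTCC on either strand, and neither window holds a match to these letters. NF-kB sites with another spacing were not searched. Il1rn has 3 windows in the table, of which the one with the lowest coordinates is shown, and the other 2 hold no match either.
Il1rn (chr2:24336610-24336909, plus strand): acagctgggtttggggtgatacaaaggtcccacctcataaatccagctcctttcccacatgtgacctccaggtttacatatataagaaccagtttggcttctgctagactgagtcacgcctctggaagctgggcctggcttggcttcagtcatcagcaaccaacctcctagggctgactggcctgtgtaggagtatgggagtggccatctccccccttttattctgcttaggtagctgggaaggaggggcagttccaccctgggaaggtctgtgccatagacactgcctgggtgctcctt
Il1r2 (chr1:40085843-40086142, plus strand): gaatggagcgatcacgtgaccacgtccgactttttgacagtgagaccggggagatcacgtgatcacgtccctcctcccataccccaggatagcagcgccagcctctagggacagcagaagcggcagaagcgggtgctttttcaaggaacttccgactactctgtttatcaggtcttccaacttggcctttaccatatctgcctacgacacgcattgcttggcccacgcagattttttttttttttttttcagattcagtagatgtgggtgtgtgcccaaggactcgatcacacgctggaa

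The windows searched numbered 16, with at least 1 for each of the 10 genes. The half-site AGGTGT was found in 2 of them, 1 at Il1rl1 and 1 at Il1rl2, while 13.7% of the 32851 promoter windows of the RefSeq table hold it. Both windows follow with the match in capitals because they are the ones with a T-box match. Counted from the start site, the match is at -64 in the Il1rl1 window and at -244 in the Il1rl2 window, where it reads on the opposite strand.
Il1rl1 (chr1:40429320-40429619, plus strand): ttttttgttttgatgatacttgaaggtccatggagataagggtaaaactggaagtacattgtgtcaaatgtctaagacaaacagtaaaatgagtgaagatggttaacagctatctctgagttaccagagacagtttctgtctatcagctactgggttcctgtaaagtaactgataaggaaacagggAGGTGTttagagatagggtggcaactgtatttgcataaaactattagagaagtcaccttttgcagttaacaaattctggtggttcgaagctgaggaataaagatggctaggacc
Il1rl2 (chr1:40324339-40324638, plus strand): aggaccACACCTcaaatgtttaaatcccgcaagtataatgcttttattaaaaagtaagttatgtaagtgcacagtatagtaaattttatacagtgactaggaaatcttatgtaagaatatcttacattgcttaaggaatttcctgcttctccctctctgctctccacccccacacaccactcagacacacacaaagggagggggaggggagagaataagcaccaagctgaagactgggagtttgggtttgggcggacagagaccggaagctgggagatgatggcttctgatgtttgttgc
The NF-kB letters GGGNNTTCC, searched because IL-1 receptors signal to this factor, were found in 1 window, at -232 from a start of Il1r1, against 5.82% of all windows. This share is for these letters alone, since NF-kB sites with another spacing were not searched. A match of letters is a description of the sequence and no evidence of binding.

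Il1r1 encodes the receptor chain that binds IL-1α, IL-1β and the antagonist and that passes on the signal. It was at 15.9, 5.84, 12.8 and 16.6 FPKM in TBX20fl/fl mice. In the cKO group it was at 11.3, 15.6, 13.4 and 15.4 FPKM. The genotypes overlapped throughout, and TBX20fl/fl replicate 2 alone was low. The log2 fold change on counts was 0.016 with a 95% interval of -0.48 to 0.51 (adjusted p = 0.973 by edgeR), and without that mouse it was -0.16. The FPKM means were 13.9 ± 2.0 and 12.8 ± 4.91 (SD, n = 4 each, p = 0.83 in the exact permutation test).

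Il1rap encodes the accessory chain that the receptors for IL-1, IL-33 and IL-36 share. It was at 13.3, 9.25, 14.3 and 14.5 FPKM in TBX20fl/fl mice. The cKO mice had 13.3, 11.7, 13.6 and 14.8 FPKM. All mice but TBX20fl/fl replicate 2 lay within a narrow band, and the log2 fold change on counts was -0.063 (95% interval -0.36 to 0.23, adjusted p = 0.792 by edgeR), or -0.10 without that mouse. With the length trend removed it was -0.31, at an unadjusted p of 0.0512 and an adjusted p of 0.535 by edgeR. Of the 10 genes it had the smallest standard error, 0.131. The gene lies apart from the cluster, on chromosome 16 (26581509 to 26730128, plus strand).

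Il1rl2 encodes the IL-36 receptor, through which keratinocytes respond to IL-36 ligands. It was at 25.1, 13.1, 25.9 and 30.04 FPKM in TBX20fl/fl mice. Its cKO values were 23.9, 27.5, 27.1 and 28.1 FPKM. Apart from TBX20fl/fl replicate 2 the mice overlapped, and the log2 fold change of 0.056 (95% interval -0.32 to 0.43, adjusted p = 0.857 by edgeR) was -0.067 without that mouse.

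Il1rl1 encodes ST2, the receptor for the alarmin IL-33, and it also gives rise to a soluble form that captures IL-33. The counts here are per gene and do not separate the forms. It was at 6.44, 6.54, 6.33 and 10.1 FPKM in TBX20fl/fl mice. In the cKO group it was at 3.82, 5.71, 7.48 and 6.73 FPKM. The highest value was in TBX20fl/fl replicate 4 and the lowest in cKO replicate 1, with the other mice mixed. The log2 fold change was -0.29 (95% interval -0.73 to 0.15, adjusted p = 0.512 by edgeR), and -0.28 without TBX20fl/fl replicate 2. It was -0.16 without cKO replicate 1, -0.18 without TBX20fl/fl replicate 4 and -0.52 with the length trend removed.

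Il18 encodes a cytokine that keratinocytes make constitutively as an inactive precursor, which inflammasome proteases cut. It lies on chromosome 9 (50554700 to 50581841, plus strand). It was at 79.5, 162.4, 97.1 and 68.1 FPKM in TBX20fl/fl mice. The cKO mice had 71.1, 70.6, 73.0 and 60.7 FPKM. The cKO mice were close together while the TBX20fl/fl mice spread widely, with replicate 2 far above the others and replicate 4 within the range of the other genotype. The means were 68.9 ± 5.53 and 101.8 ± 42.2 FPKM (SD, n = 4 each, p = 0.114 in the exact permutation test). The log2 fold change on counts was -0.82 (SE 0.354, 95% interval -1.62 to -0.025, adjusted p = 0.498 by edgeR). It was -0.29 without TBX20fl/fl replicate 2, so this library carried most of the difference. Over whole gene spans, introns included, Il18 overlaps Tex12 by 4507 bases and Bco2 by 355 bases on the opposite strand. Overlap of exons was not measured, and the sources used here do not say whether reads were counted by strand.

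Il18bp encodes the secreted protein that binds IL-18 and keeps it from its receptor, and lies on chromosome 7 (102015074 to 102018232, minus strand). It was at 6.54, 6.02, 6.42 and 7.02 FPKM in TBX20fl/fl mice. Its cKO values were 4.87, 4.07, 3.90 and 6.90 FPKM. Replicate 4 of the cKO mice lay within the range of the TBX20fl/fl mice and the other 3 lay below it. The log2 fold change was -0.59 (SE 0.22, 95% interval -1.09 to -0.099, adjusted p = 0.498 by edgeR), on 102 to 188 counts per mouse. It was -0.50 without TBX20fl/fl replicate 2.

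Il18r1 and Il18rap encode the ligand-binding and accessory chains of the IL-18 receptor, known from T cells, natural killer cells and some myeloid cells. Il18rap was at 2.0, 1.65, 2.16 and 2.83 FPKM in TBX20fl/fl mice and at 1.30, 1.56, 1.53 and 1.83 FPKM in cKO mice. Only cKO replicate 4 was above the lowest TBX20fl/fl mouse, replicate 2, and the exact permutation test gave p = 0.0571. Its log2 fold change was -0.59 (SE 0.168, 95% interval -0.97 to -0.22), and -0.63 without that TBX20fl/fl mouse. It had the smallest unadjusted p of the 10 genes, 0.00603, with an adjusted p = 0.498 by edgeR. Il18r1 was at 3.65, 5.04, 5.20 and 3.76 FPKM in TBX20fl/fl mice and at 3.98, 3.78, 2.66 and 3.61 FPKM in cKO mice. Its values overlapped between genotypes, with TBX20fl/fl replicates 2 and 3 high and cKO replicate 3 low, and its log2 fold change was -0.41 (SE 0.184, 95% interval -0.82 to 0.0047, adjusted p = 0.498 by edgeR), or -0.31 without TBX20fl/fl replicate 2.

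**Figure D2:**
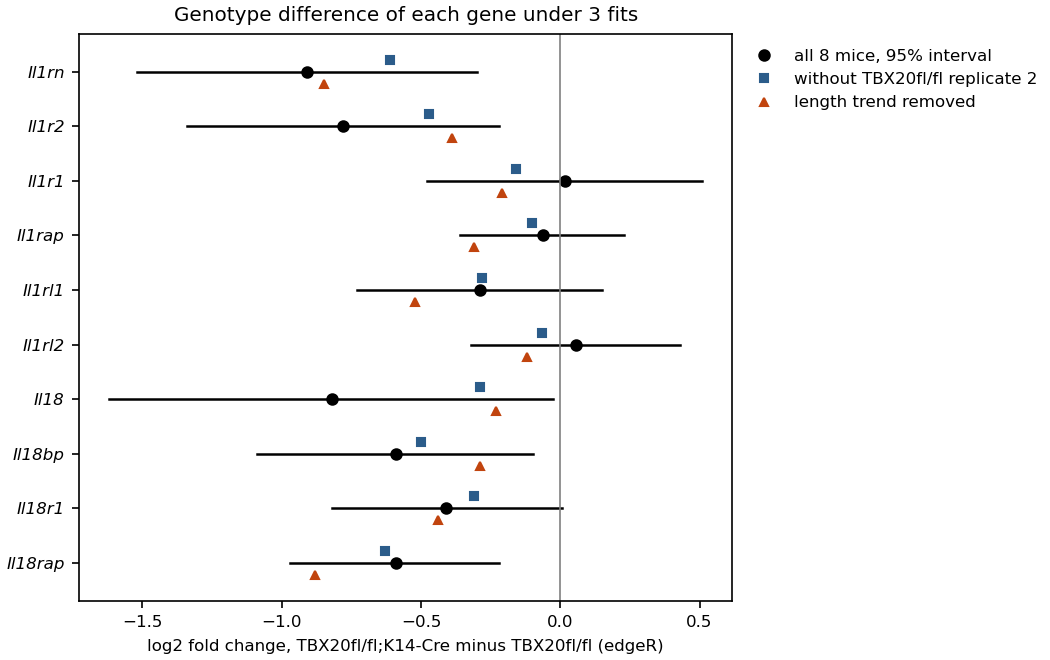
Log2 fold change of each gene, cKO over TBX20fl/fl, from edgeR's fit to the counts of 8 mice with its 95% interval, beside the value with the length trend removed and the value without TBX20fl/fl replicate 2. Under both alternatives all 10 genes lie below 0, and Il18 moves from -0.82 to -0.23 and -0.29.

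The library that stood apart differed from the other TBX20fl/fl mice according to transcript length, and the members span short and long transcripts. In log2 CPM, TBX20fl/fl replicate 2 was above the median of the other 3 TBX20fl/fl mice by 1.52 for Il18, with a transcript of 0.923 kb, and by 0.98 for Il1r2, with 1.31 kb. For Il1r1, with 4.74 kb, the difference was -0.95. The trend over all genes at the same lengths gave 1.14, 0.84 and -0.85. Il1rn, at 2.42 kb, lay above the trend, with 1.04 against 0.098. So did Il18r1, with 0.52 against -0.11, Il1rl1, with 0.22 against -0.64, Il1rap, with -0.19 against -0.73, and Il18rap, with -0.10 against -0.84. Il18bp lay below it, with 0.36 against 0.81. When a trend with length was removed from each mouse, all 10 genes were lower in cKO mice, as were 8067 of all 17124 genes tested. In that fit 5 had an unadjusted p-value under 0.05, namely Il1rn, Il1r2, Il1rl1, Il18r1 and Il18rap, against 5.20% of all genes, and none passed the adjusted threshold. The log2 fold change was then -0.85 for Il1rn, -0.88 for Il18rap and -0.39 for Il1r2, and -0.23 for Il18. Without the library, all 10 were also lower, and 4 had an unadjusted p-value under 0.05 by edgeR, namely Il1rn, Il1r2, Il18rap and Il18bp, against 4.50% of 17058 genes. Il1rn, Il1r2 and Il18rap were among the genes with an unadjusted p-value under 0.05 in all 3 of these fits.

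**Figure D3:**
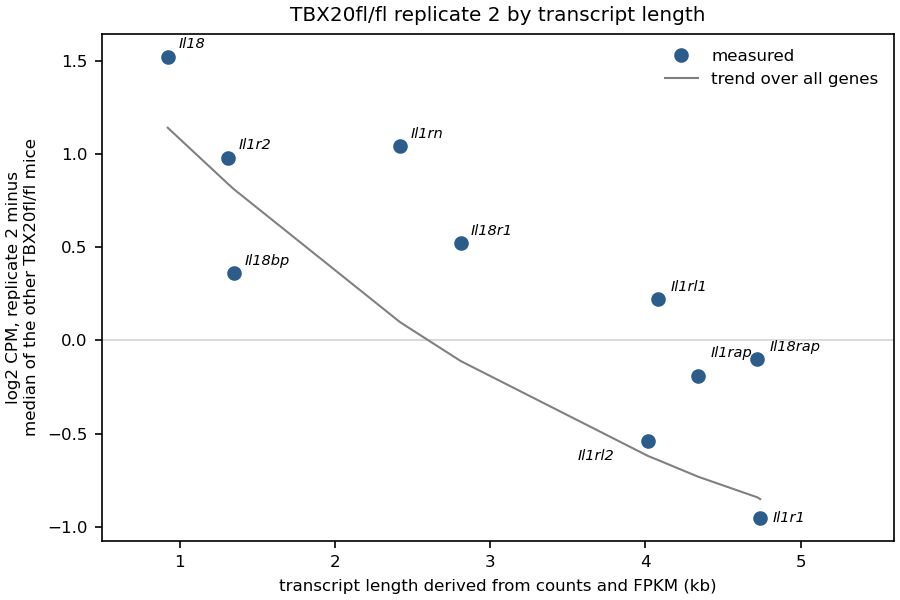
Difference of TBX20fl/fl replicate 2 from the median of the other 3 TBX20fl/fl mice (log2 CPM) against transcript length (kb) for the 10 genes, with the trend over all genes at the same lengths. Short transcripts such as Il18 lie above 0 and the long Il1r1 lies at -0.95.

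Of the 10 genes, 6 form a cluster of receptor genes within 467 kb on chromosome 1, all on the plus strand, in the order Il1r2, Il1r1, Il1rl2, Il1rl1, Il18r1 and Il18rap. Il1rl1 and Il18r1 are 133 bp apart, and the widest gap, 97249 bp, lies between Il1r2 and Il1r1. The genes at both ends of the cluster, Il1r2 at -0.78 and Il18rap at -0.59, had the log2 fold changes farthest from 0 in it. Between them Il1r1 was at 0.016, Il1rl2 at 0.056, Il1rl1 at -0.29 and Il18r1 at -0.41, and differences between neighbouring genes were not tested. With the length trend removed, the 6 values in the same order were -0.39, -0.21, -0.12, -0.52, -0.44 and -0.88. Stretches of 50 bases, the read length, were shared with other annotated genes for 0 to 0.32% of each of the 10 genes' transcripts. Another annotated gene overlaps 6 of the 10, among them Il1r2, with the antisense gene Gm16894 over 9624 bases, and Il1rap, with the antisense gene Gm20319 over 15672 bases. These overlaps are of whole gene spans, introns included, and overlap of exons was not measured. Only reads from stretches where exons overlap could not be told apart without strand.

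**Figure D4:**
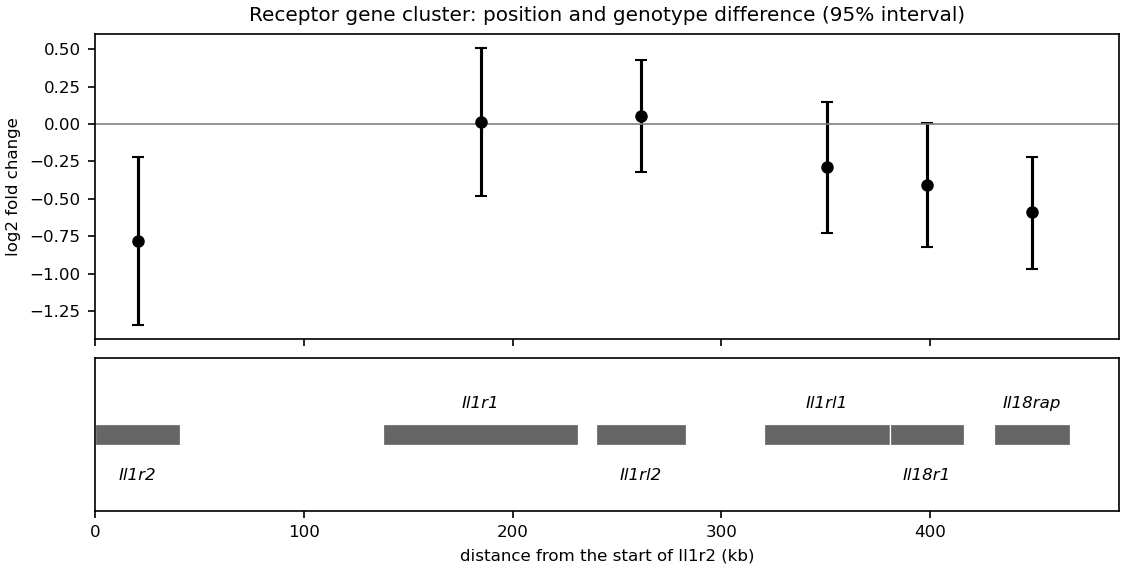
The receptor cluster on mouse chromosome 1, with each gene drawn to scale by its distance in kb from the start of Il1r2, and above it the log2 fold change of each gene with its 95% interval. Il1r2 and Il18rap, at the ends, are at -0.78 and -0.59, and Il1r1 is at 0.016.

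The ligands of these receptors were given by a list of 8 IL-1 family cytokines, and all 8 had a fitted log2 fold change below 0, with a median of -0.69. At an unadjusted p-value under 0.05 by edgeR 6 of the 8 were lower, against 5.91% of all genes, and at an adjusted p-value under 0.05 there were 0. Il1b, the gene of IL-1β, had the largest difference, -2.06 (SE 0.563), with 33.0 ± 19.9 FPKM in cKO and 113.8 ± 60.0 FPKM in TBX20fl/fl mice (SD, n = 4 each). With the length trend removed its difference was -1.60. Il1a, the gene of IL-1α, was at 13.1 to 16.1 and 18.9 to 26.5 FPKM, without overlap (1.87% of all genes were lower without overlap), with a log2 fold change of -0.81, or -0.64 with the length trend removed. Il33, the ligand of ST2, was at -0.66, and at -0.63 with the length trend removed. The IL-36 agonist genes Il1f6, Il1f8 and Il1f9 were at -0.98, -0.68 and -0.70, and with the length trend removed at -0.51, -0.13 and -0.44. Il1f10, the gene of IL-38, was at -0.63 and Il1f5, the IL-36 receptor antagonist gene, at -0.17, and neither had an unadjusted p-value under 0.05. The Il1f5 level was 63.5 ± 10.4 FPKM in cKO and 62.7 ± 1.06 FPKM in TBX20fl/fl mice (SD, n = 4 each), and its log2 fold change was 0.044 with the length trend removed. With the length trend removed, 6 of the 8 were below 0 and the median was -0.47, and without TBX20fl/fl replicate 2 the median was -0.51.

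Genes of IL-1 receptor signalling were given by a list of 16, which holds further receptor-family genes beside downstream ones. Of the 16, 14 passed the filter, and the brain receptors Il1rapl1 and Il1rapl2 had 0 to 3 counts. Of the 14, 6 had a log2 fold change below 0 and 8 above, with a median of 0.15, which was -0.0016 with the length trend removed and -0.024 without TBX20fl/fl replicate 2. The adaptor Myd88 was the only one with an unadjusted p-value under 0.05 by edgeR, where 5.91% of all genes were lower. It was at 31.1 to 46.7 FPKM in cKO and 47.7 to 54.5 FPKM in TBX20fl/fl mice, without overlap, beside the same 1.87% of all genes. Its log2 fold change was -0.65 (SE 0.199, adjusted p = 0.498), or -0.48 with the length trend removed. The kinase genes Irak1, Irak2, Irak3 and Irak4 lay between -0.15 and 0.16.

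Ratios between members and their partners within a mouse were compared on FPKM. The ratio of Il1rn to Il1b, of antagonist to agonist transcript, was 1.03, 0.545, 1.18 and 0.675 in TBX20fl/fl mice. In cKO mice it was 3.32, 1.37, 2.12 and 1.18. The ratio was higher in cKO mice, where both genes were lower and Il1b more so, and only the lowest of these mice lay within the range of the TBX20fl/fl mice. The difference in mean log2 ratio was 1.17 (0.88 ± 0.673 against -0.29 ± 0.521, SD, n = 4 each), with p = 0.0571 in the exact permutation test, and adjusted over the 4 ratios it was 0.229. Without TBX20fl/fl replicate 2 the difference was 0.97, with p = 0.114 in the exact permutation test. The ratio of the decoy Il1r2 to the signalling receptor Il1r1 was 7.12 to 9.64 in cKO mice. In TBX20fl/fl mice it was 9.56, 37.0, 13.3 and 8.09, so that replicate 2 was far above the rest (difference in mean log2 ratio -0.76, p = 0.2 in the exact permutation test). Leaving TBX20fl/fl replicate 2 out gave a difference of -0.29. Il18bp to Il18 lay at 0.0534 to 0.114 and 0.0371 to 0.103, and Il1rl1 to Il33 at 0.117 to 0.258 and 0.129 to 0.139. For both, the genotypes overlapped and the exact permutation test gave p = 0.886, with differences in mean log2 ratio of 0.051 and 0.17.

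**Figure D5:**
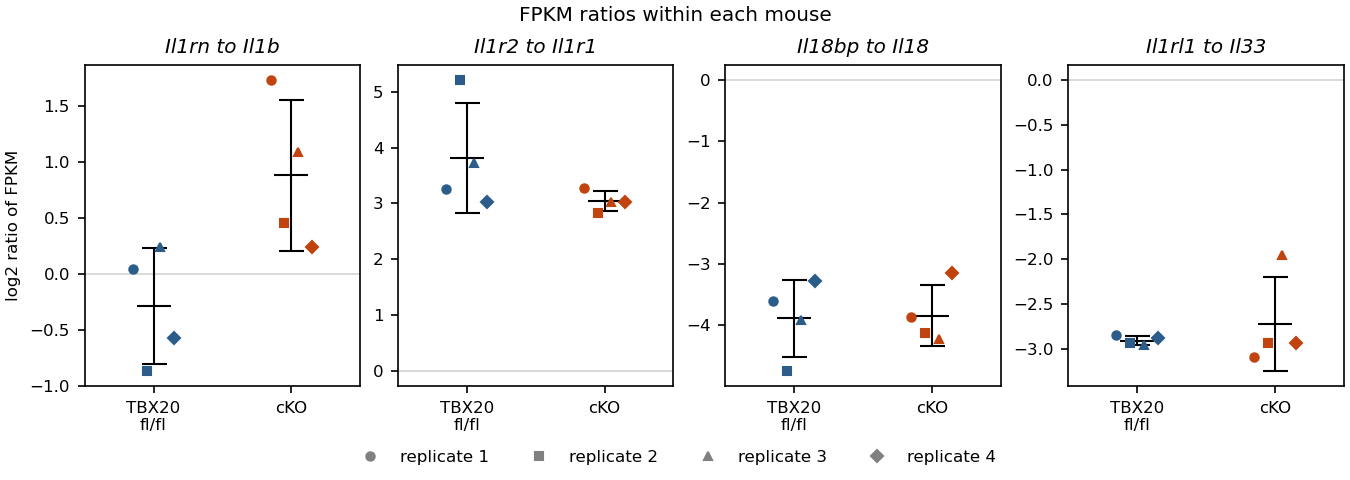
Ratio of FPKM within each mouse for 4 pairs of genes, on a log2 axis, with 1 point per mouse by genotype and a bar for the mean ± SD of the log2 ratio over 4 mice. Il1rn to Il1b runs from 1.18 to 3.32 in cKO and from 0.545 to 1.18 in TBX20fl/fl mice, and a single TBX20fl/fl mouse stands at 37.0 for Il1r2 to Il1r1.

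Of 12 neutrophil markers all had a fitted log2 fold change below 0, and 8 were lower with an unadjusted p-value under 0.05 by edgeR, against 5.91% of all genes, at a median log2 fold change of -1.28 and a summed level of 206.9 to 374.0 CPM against 373.9 to 906.4 CPM. Of 9 mast cell markers tested, 8 had a fitted value below 0 and 6 were lower at that unadjusted p-value, with sums of 578.4 to 616.9 CPM against 718.7 to 1514 CPM, which did not overlap. All 10 markers of T and natural killer cells, in which the IL-18 receptor is known, had a fitted value below 0, as small as -0.061 for Cd3e, and 4 were lower at that unadjusted p-value, with a median of -0.64 and a sum of 55.3 to 77.5 CPM against 69.1 to 144.2 CPM. Macrophage and monocyte markers had a fitted value below 0 for 8 of 10 and were lower at that unadjusted p-value for 4, with a median of -0.37 and sums of 949.4 to 1451 CPM against 997.0 to 1569 CPM. The corresponding values for Langerhans and dendritic cell markers were 8 of 10 and 2, a median of -0.35, and 1887 to 3039 CPM against 2105 to 4559 CPM. Keratinocyte markers had a median of 0.074, with 3 of 10 below 0, and fibroblast, endothelial and skeletal muscle markers had medians of 0.34, 0.26 and -0.19. At that unadjusted p-value 2 of 10 fibroblast and 7 of 10 hair follicle markers were higher, against 2.45% of all genes. Of 10 skeletal muscle markers 1 was lower. Hair follicle markers had a fitted value above 0 for 10 of 10, with a median of 2.70 that was 0.60 without cKO replicate 2. Their sum was 3836 CPM in that mouse, 94.8, 549.4 and 142.3 CPM in the other cKO mice and 46.5 to 296.8 CPM in TBX20fl/fl mice. No marker of these lists was at 0 in all mice, and Ly6g, which defines neutrophils, had only 2 to 4 counts in cKO and 6 to 9 counts in TBX20fl/fl mice. Without TBX20fl/fl replicate 2 the medians of the neutrophil, mast cell, T and natural killer cell, macrophage, and Langerhans and dendritic cell lists were -1.11, -0.37, -0.38, -0.22 and -0.21. With the length trend removed, the medians of the same lists were -1.04, -0.51, -0.31, -0.11 and -0.053, and the markers below 0 numbered 12 of 12, 6 of 9, 8 of 10, 6 of 10 and 5 of 10. The part of these cell types in the members' values was not tested.

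The genes whose levels followed the members most closely were found by Pearson's r of log2 CPM over the 8 mice, among 13288 genes whose mean count reached 50, for the 2 members with the smallest unadjusted p. For Il18rap these were Cxcr2, a chemokine receptor of neutrophils, at 0.963, Rab5c, a GTPase of early endosomes, at 0.957 and Wdr92 at 0.939. For Il1rn they were Litaf at 0.985, Myd88 at 0.977 and Clec4e, a C-type lectin receptor of myeloid cells, at 0.976. These are the highest of 13288 values over mice that share their libraries and genotypes, and they are given as a description.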

How the data were processed

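Cheek skin was taken after BNP injection from 4 cKO (TBX20fl/fl;K14-Cre) and 4 TBX20fl/fl mice. The authors made single-end reads of 50 bases, filtered them with SOAPnuke and aligned them with HISAT. The deposited table holds the authors' estimated counts (expected counts, not normalized), FPKM values from the Dr. Tom platform, TPM values and a normalized signal of counts divided by a size factor. The TPM values and the signal were not used, and neither were the columns of the authors' comparisons and group means. The program that estimated the counts and its use of strand are not given in the sources used here. Of the counts above 0, 69.0% were not whole, and they were rounded. Total counts were 16056282 to 19880654 per mouse, at which 3 counts correspond to 0.151 to 0.187 CPM, for counting error only.

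After TMM scaling, the genes that reached 10 counts in all mice together were compared by edgeR's quasi-likelihood test (version 4.0.16, R 4.3.3), with Benjamini-Hochberg adjustment at 0.05. DESeq2 1.42.0 and limma 3.58.1 on log2(FPKM + 1) were alternatives. FPKM values and their ratios were compared by two-sided exact permutation tests (Python 3.11.15, scipy 1.17.1). The edgeR and DESeq2 tests were run on simulated counts with known changes, and the permutation tests on made-up values with a known p. The limma fit was not checked in this way. The length trend used transcript lengths implied by the ratio of deposited counts to FPKM. Sequences are from RefSeq (GRCm38.p6), and positions are on GRCm38.

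The members, gene lists and alternatives were chosen with earlier results of these data known. Named genes are the members, the ligands, the signalling genes with an unadjusted p under 0.05, markers given beside a member, and the 3 genes most like each of the 2 members with the smallest unadjusted p. The 4 Irak genes, Cd3e, Ly6g, Tbx20, the 2 signalling genes that were not tested and overlapping genes were named after their values were seen. The mice are numbered 1 to 4 in both genotypes in the deposited labels. Deviations from the group means correlated at 0.108 to 0.323 in the 4 same-numbered pairs and at -0.407 to 0.32 in the other pairs, so the number was used as a block in an alternative. The mice are different animals.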

Additional observations from a re-analysis of the deposited data

Results flagged for a closer look

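In 3 of the 28 groups of 4 mice examined (10 genes and 4 ratios in both genotypes), 1 mouse was far from the other 3 by Dixon's criterion, which sets the gap to the nearest mouse against the group's range. Chance gives about 1 in 20 groups, here 1.40. Il1r2 was at 125.6 FPKM in cKO replicate 4 and at 109.4 to 111.3 FPKM in the other 3 mice of that genotype, and even this highest value was below the lowest TBX20fl/fl mouse. Il1rl1, the gene of the IL-33 receptor, was at 10.1 FPKM in TBX20fl/fl replicate 4 and at 6.33 to 6.54 FPKM in the other 3. The log2 ratio of Il1rl1 to Il33 was -1.95 in cKO replicate 3 and -3.09 to -2.93 in the other 3.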

How the results depend on the processing

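No member had an adjusted p-value under 0.05 under any of the 18 alternatives to edgeR's fit. Over these, Il1rn, Il1r2, Il1rl1, Il18, Il18r1, Il18rap and Il18bp had a log2 fold change below 0 in each. DESeq2 called 10 genes of the whole table where edgeR called 0. The sign of Il1r1, Il1rl2 and Il1rap turned under some alternatives. Il1r1 was at -0.21 with the length trend removed, -0.22 with the replicate block as well, and -0.16 to 0.12 when each mouse was left out. Il1rl2 was at -0.12 in both of these fits and at -0.067 to 0.15 over the left-out mice. Il1rap was at -0.31 with the length trend removed, -0.30 with the block as well, and 0.07 and 0.077 by limma on log2(FPKM + 1) and log2(FPKM + 0.1), and its mean log2 FPKM difference was -0.065 with CPM in place of FPKM. With CPM, the exact permutation test gave p = 0.0286 in place of 0.0571 for Il1rn (-0.86) and for Il18rap (-0.59). Without each mouse in turn, the mean log2 FPKM difference was -0.12 to 0.38 for Il1r1, -0.072 to 0.14 for Il1rap and -0.017 to 0.38 for Il1rl2. The signalling list's median was -0.0016 with the length trend removed, 0.016 with the block as well, 0.31 and 0.35 by limma with the same pseudocounts of 1 and 0.1, and -0.024 to 0.23 over the left-out mice. The log2 ratio of Il1rn to Il1b differed by 1.16 with CPM in place of FPKM (p = 0.0286 in the exact permutation test), and by 0.88 to 1.38 over the left-out mice. The difference for Il1r2 to Il1r1 was -1.02 to -0.29 over the left-out mice, at -0.29 without TBX20fl/fl replicate 2. That for Il18bp to Il18 ranged from -0.24 to 0.25 and that of Il1rl1 to Il33 from -0.085 to 0.30 over the left-out mice (0.36 with CPM in place of FPKM, p = 0.171 in the exact permutation test), the first below 0 without cKO replicate 4 or TBX20fl/fl replicate 2 and the second without cKO replicate 3. The cause was not tested. With the replicate number as a block, Il1rn was at -0.86, Il1r2 at -0.70, Il18 at -0.64 (unadjusted p = 0.0614) and 4 members were lower with an unadjusted p-value under 0.05 by edgeR, beside 6.54% of all genes. With the length trend removed as well, 4 were lower at that p-value, Il1rn, Il1r2, Il1rl1 and Il18rap. In that fit 1810 of 17124 genes were under 0.05 in either direction. The block changed no call at the adjusted threshold. In the paired exact permutation test, which cannot go below 0.125 with 4 pairs, the Il1r2 FPKM difference had p = 0.125 and was no longer under 0.05. The genes with an unadjusted p-value under 0.05 numbered 1431, against 823 to 2405 over the left-out mice. With 4 mice per genotype the exact permutation test cannot go below 0.0286, and with 1 mouse left out not below 0.0571.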
